A study of Mus musculus with 64 samples.

Results

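Myc and 34 factors that build ribosomes were followed in mouse colon after a pinch biopsy, 35 genes of 23997 gene symbols in a time course and of 23995 in a cohort with 2 arms. They were taken by gene symbol, with no threshold on a measured value, but were chosen with earlier results of these data known. Each of the 35 was found in both cohorts. All 35 also reached at least 1 FPKM (fragments per kilobase of transcript, scaled to the mapped reads of a library) in at least 4 libraries of each cohort and were tested there among 13285 and 11849 genes. By role the members are Myc itself, 2 subunits of RNA polymerase I, 8 proteins of the small nucleolar ribonucleoproteins, 11 factors of the small ribosomal subunit, 9 factors of the large subunit and 4 abundant nucleolar proteins.

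Myc is a transcription factor that pairs with Max, binds the DNA letters CACGTG (an E-box) and raises the expression of genes for cell growth, ribosome assembly among them. Ribosomes are made in the nucleolus: RNA polymerase I copies the ribosomal DNA, small nucleolar ribonucleoproteins modify the transcript, and assembly factors cut and fold it together with the ribosomal proteins into a small and a large subunit before they leave. In the colon Myc is known as a Wnt target of the dividing cells of the crypt.

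Polyadenylated RNA was sequenced from colon of C57BL/6 mice, an inbred strain, in 64 libraries. The time course held 41 libraries, 22 from the wound bed left by a pinch biopsy, which takes a small piece of mucosa, and 19 from uninjured tissue of sham-treated mice, with 6 biopsies and 4 shams at 1 h, 5 of each at 6 h, 6 and 5 at 3 d, and 5 of each at 6 d. The other cohort held 23 libraries collected at 6 h in the abx-titled arm (5 biopsies and 6 shams) and the veh-titled arm (6 and 6), of which 1 arm was given broad-spectrum antibiotics in the drinking water. Here the titles and the condition labels contradict each other, since the abx-titled libraries are labelled as controls and the veh-titled ones as antibiotic-treated, so the arms are named by title, and which of them had antibiotics is not decided here. No allele, transgene or age is given, and the labels do not tie libraries to separate mice, so p-values measure the spread between libraries, which may be technical.

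Summed over all genes, FPKM came to between 414318 and 522098 in libraries of the time course and between 229752 and 266646 in those of the arms, and each cohort had its own fit. No read counts were used here, and the depth behind each value is unknown. The summed level of 10 epithelial markers was 7826 to 16900 FPKM per library of the time course, and no marker was at 0 throughout a group. A few libraries stood apart in the members. The 1 h sham library 1 lay above the mean of its group in 34 of the 34 factors other than Myc, and so did the abx-titled sham library 5, whose 10 cycling-cell markers summed to 111 FPKM against a group median of 42.7. The 3 d sham library 1 lay above its group's mean in 1 of the 34. In 4 libraries (1 h sham 1, 6 d biopsy 3, 6 d sham 2 and abx-titled sham 3) B and plasma cell markers summed to 82.9 to 366.5 FPKM. FPKM are relative to the other RNA in a library, and the median log2 change of all genes tested was −0.18 at 1 h, −0.12 at 6 h, 0.09 at 3 d, 0.11 at 6 d, −0.12 in the abx-titled and −0.17 in the veh-titled arm. With libraries scaled by the median of ratios these medians came to between −0.01 and 0.04. Of the genes called, 17.3% were higher at 1 h, 36.0% at 6 h, 75.3% at 3 d, 77.0% at 6 d, and 37.7% and 34.4% in the abx- and veh-titled arms, against 50.4%, 50.8%, 50.8%, 50.5%, 51.0% and 54.0% under that scaling.

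Promoters of members that hold the E-box CACGTG are shown because Myc with Max binds these letters and because the members moved together at 6 h (values below). RefSeq promoters of GRCm38.p6, 250 bases before to 50 bases after the start of a gene, were matched by symbol for 29 of 35 members and were not matched for Bop1, Rrs1, Fbl, Npm1, Myc and Rrp12. CACGTG reads the same on both strands. It occurred in 8 of the 29 (27.6%), which were Nop2, Grwd1, Ltv1, Pes1, Pno1, Mybbp1a, Tsr1 and Wdr43. The share was 8.09% of all 27025 genes with a promoter and 11.6% of 9884 such genes that were tested in the time course. Counted by promoter, of which a gene can have more than 1, it was 7.15% of 32851. A match describes letters only, not binding. The motif was absent from the promoters of Nop56, Gnl3, Nolc1 and Nop58, which are among the members with the largest changes. Tsr1, which holds it, was not called at 6 h. Whether the motif goes with the size of a change was not tested. With the first transcribed base counted as 1, the motif began at position 35 in Grwd1, 41 in Mybbp1a, 18 in Wdr43, −60 in Nop2 and 38 in Pno1. Of the 8 members with the motif these 5 had the largest changes, and their promoters are written below from 5′ to 3′ on the strand of the gene with CACGTG in capitals: Grwd1 at chr7:45830740-45831039 (minus strand), Mybbp1a at chr11:72441077-72441376 (plus), Wdr43 at chr17:71615965-71616264 (plus), Nop2 at chr6:125131633-125131932 (plus) and Pno1 at chr11:17211540-17211839 (minus).
Grwd1: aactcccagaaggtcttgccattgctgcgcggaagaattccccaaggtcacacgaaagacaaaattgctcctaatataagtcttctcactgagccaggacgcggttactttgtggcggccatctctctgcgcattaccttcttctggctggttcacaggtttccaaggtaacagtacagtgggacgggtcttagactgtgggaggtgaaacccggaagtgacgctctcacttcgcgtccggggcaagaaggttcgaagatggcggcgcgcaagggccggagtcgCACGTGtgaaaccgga
Mybbp1a: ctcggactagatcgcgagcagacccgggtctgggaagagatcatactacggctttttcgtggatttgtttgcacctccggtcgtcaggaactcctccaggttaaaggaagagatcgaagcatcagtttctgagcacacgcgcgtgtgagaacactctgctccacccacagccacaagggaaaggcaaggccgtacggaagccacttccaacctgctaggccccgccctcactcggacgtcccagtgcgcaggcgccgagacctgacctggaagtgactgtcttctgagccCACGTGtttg
Wdr43: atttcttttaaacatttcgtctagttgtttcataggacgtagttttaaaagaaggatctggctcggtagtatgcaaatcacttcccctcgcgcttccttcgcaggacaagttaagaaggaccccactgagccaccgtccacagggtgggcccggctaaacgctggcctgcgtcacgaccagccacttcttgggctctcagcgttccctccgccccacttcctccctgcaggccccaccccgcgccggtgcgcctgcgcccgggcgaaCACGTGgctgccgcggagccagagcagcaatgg
Nop2: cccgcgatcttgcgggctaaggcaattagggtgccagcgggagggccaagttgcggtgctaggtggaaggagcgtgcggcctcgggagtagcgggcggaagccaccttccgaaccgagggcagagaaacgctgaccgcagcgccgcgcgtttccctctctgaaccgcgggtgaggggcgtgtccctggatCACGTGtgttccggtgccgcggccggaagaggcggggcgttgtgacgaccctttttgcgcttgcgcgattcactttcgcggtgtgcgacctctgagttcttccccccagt
Pno1: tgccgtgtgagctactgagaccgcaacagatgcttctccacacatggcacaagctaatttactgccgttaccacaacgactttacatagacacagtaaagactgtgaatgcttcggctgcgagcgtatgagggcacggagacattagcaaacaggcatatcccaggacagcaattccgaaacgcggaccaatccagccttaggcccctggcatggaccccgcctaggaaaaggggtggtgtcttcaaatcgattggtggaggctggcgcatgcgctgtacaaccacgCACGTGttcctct

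Over the time course Myc was raised in the wound bed from the earliest time, and the ribosome factors were raised at 6 h. At 1 h 2 members were higher after biopsy than after sham and 7 were lower at an adjusted p under 0.05 (limma), where 9.38% of all genes tested were higher and 45.0% lower. At 6 h 33 of 35 members were higher and 0 lower (0 lower also at an unadjusted p under 0.05), against 24.3% and 43.2% of all genes. At 3 d 32 were higher and 0 lower, against 32.1% and 10.5%, and without sham library 1 the count was 21, against 25.4%. At 6 d 14 were higher and 0 lower, a share near that of all genes, of which 34.1% were higher and 10.2% lower. That count was 7 with the median of ratios scaling, where 18% of all genes were higher, 6 with quantile normalization (18.5%) and 25 in a fit of the 2 groups alone (36.7%). The median log2 change of the members was −0.05 at 1 h, 0.81 at 6 h, 0.39 at 3 d and 0.22 at 6 d. In bulk tissue, fewer cells of a type and less RNA per cell cannot be told apart.

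**Figure D1:**
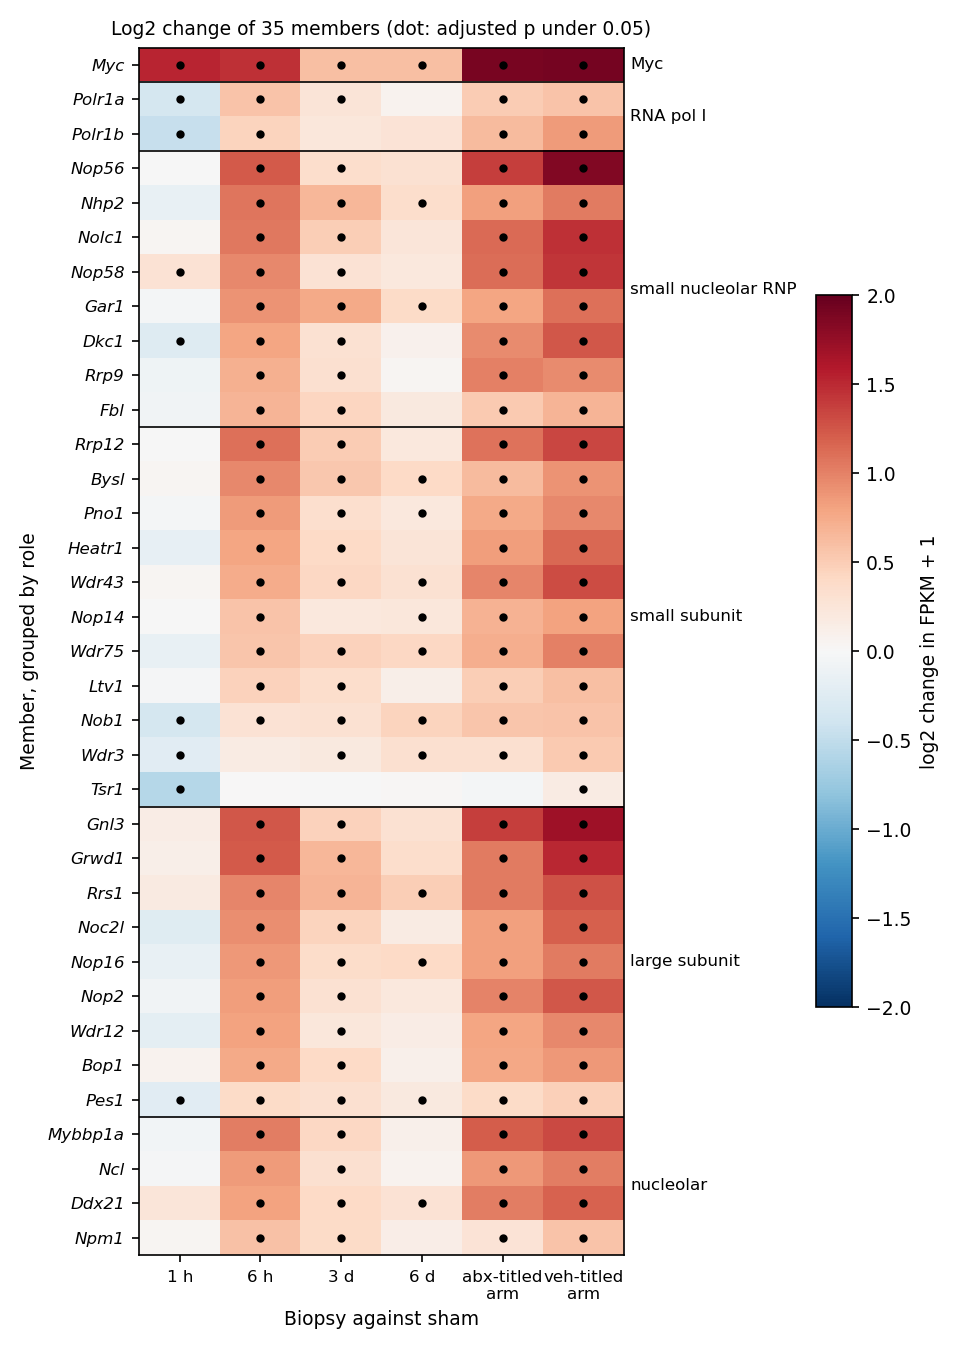
Log2 change of FPKM + 1, biopsy against sham, for 35 members (vertical axis, grouped by role) in 4 times and 2 arms (horizontal axis), with a black dot where the adjusted p was under 0.05 (limma). Myc is red in all 6 columns, 33 members carry a dot at 6 h, and Tsr1 is pale at 6 h, 3 d and 6 d.

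Myc (chr15:61985391-61990374, plus strand, mm10 as are all positions of genes given here, from GENCODE vM21) rose at every time. At 1 h the 6 biopsy libraries ranged from 26.9 to 67.5 FPKM with a median of 45.6. The 4 shams stood at 23.3, 15.2, 11.4 and 11.1 FPKM. All biopsies were above all shams, and the sham library that stood apart was the highest sham. The mean was 45.6 ± 14.4 FPKM (SD, n = 6) after biopsy and 15.3 ± 5.65 (SD, n = 4) after sham, a log2 change of 1.52 ± 0.21 (SE) with an adjusted p of 1.18e-07 (limma). At 6 h the biopsies had 18.7, 25.5, 28.5, 31.3 and 16.9 FPKM, and the shams 7.02, 6.92, 7.76, 11.0 and 7.60 FPKM. The groups did not overlap, and the log2 change was 1.46 ± 0.20 (SE, adjusted p = 1.02e-07, limma). The means of both groups were lower than at 1 h, 24.2 ± 6.21 FPKM (SD, n = 5) after biopsy and 8.05 ± 1.67 (SD, n = 5) after sham.

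At 3 d Myc was between 10.4 and 14.3 FPKM in 6 biopsies with a median of 12.4, and the 5 shams had 4.21, 11.3, 7.998, 9.08 and 7.91 FPKM. The groups overlapped, since sham library 2 was above 2 biopsies. The log2 change was 0.61 ± 0.19 (SE, adjusted p = 0.0114, limma), and without sham library 1, the lowest, it was 0.42 with an adjusted p of 0.0799. At 6 d the biopsies had 13.2, 17.3, 15.9, 13.9 and 15.6 FPKM and the shams 10.4, 9.13, 9.87, 8.52 and 10.2 FPKM. These groups did not overlap, and the log2 change was 0.60 ± 0.20 (SE, adjusted p = 0.0151, limma). The effect on Myc fell by 0.85 ± 0.28 on the log2 scale from 6 h to 3 d (SE, adjusted p = 0.011, limma). The difference of −0.06 ± 0.29 between 1 h and 6 h did not pass (adjusted p = 0.875, limma). That difference rests on the shams of each time, and the mean of Myc in shams was highest at 1 h (values below).

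**Figure D2:**
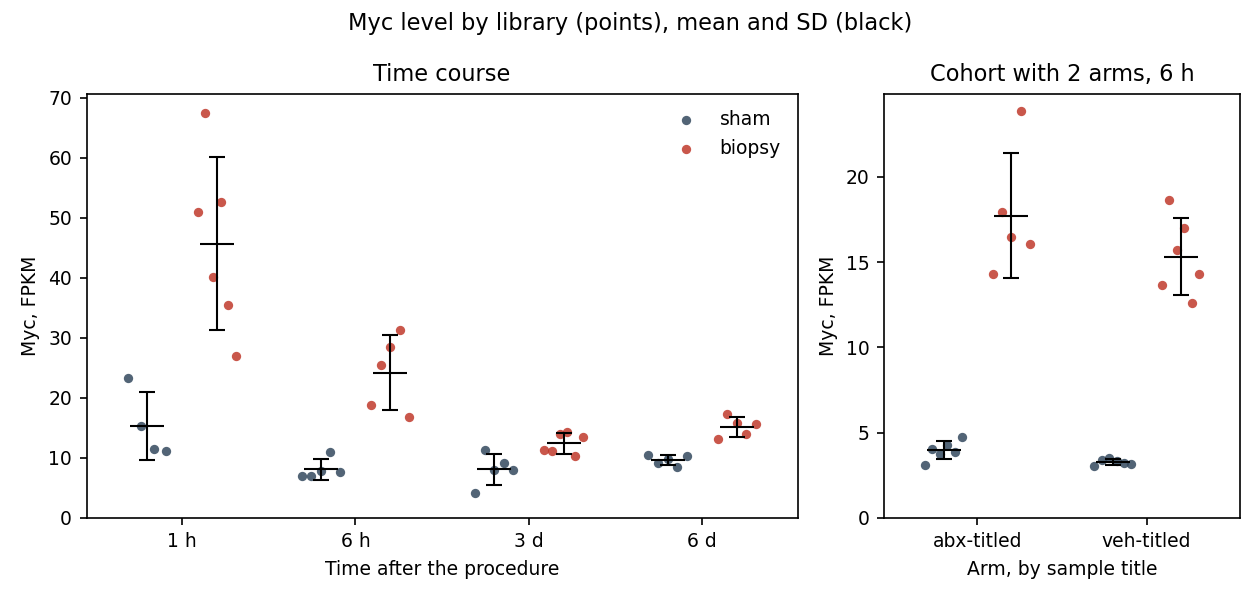
Myc in FPKM (vertical axis, from 0) by time of the time course and by arm (horizontal axis), with 1 point per library and the mean ± SD in black. At 1 h the biopsies reach from 26.9 to 67.5 FPKM above shams of 11.1 to 23.3 FPKM, and from 1 h to 3 d the biopsy points move down. The panels have different scales.

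Of the RNA polymerase I subunits, Polr1a, the largest subunit, and Polr1b, its partner in the catalytic core, were lower in the wound at 1 h and higher at 6 h. Polr1a was at −0.35 (adjusted p = 0.00443, limma) and Polr1b at −0.46 (adjusted p = 0.000863, limma) at 1 h on the log2 scale. With the median of ratios scaling Polr1a was at −0.18 and no longer passed (adjusted p = 0.125, limma), and Polr1b was at −0.27 (adjusted p = 0.0294, limma). At 6 h they rose by 0.57 and 0.44. At 3 d Polr1a rose by 0.26, a call lost with the median of ratios scaling (0.17, adjusted p = 0.112, limma) and without sham library 1 (0.14, adjusted p = 0.215, limma), sham library 4 or biopsy library 2, 4 or 5 (adjusted p of 0.0526 to 0.0752, limma). Polr1b was at 0.23 at 3 d (adjusted p = 0.0787, limma). Neither passed at 6 d, with values of 0.08 and 0.27.

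The 8 small nucleolar ribonucleoprotein members all rose at 6 h, by 0.68 to 1.22 with a median log2 change of 0.93, and all 8 rose at 3 d, by 0.28 to 0.75. The 3 d calls of Nop56, Nop58 and Dkc1 were lost with the median of ratios scaling (adjusted p of 0.115, 0.114 and 0.0698, limma) and without sham library 1 (adjusted p of 0.235, 0.0516 and 0.123, limma), which left 5 of 8. At 6 d Gar1 (0.38) and Nhp2 (0.35), both proteins of the particles that make pseudouridine, passed. Gar1 did not pass with the median of ratios scaling (0.26, adjusted p = 0.0923, limma) or without sham library 1 or 4 or biopsy library 4 or 5 (adjusted p of 0.0561 to 0.0808, limma). Nop56 (chr2:130274430-130279313, plus strand), a core protein of the particles that add methyl groups to ribosomal RNA, had the largest rise of any member other than Myc over the 6 comparisons. At 6 h its biopsies had 40.4, 37.9, 53.3, 47.9 and 35.2 FPKM and its shams 18.3, 16.9, 15.97, 21.8 and 15.9 FPKM. Every biopsy was above every sham, and the log2 change was 1.22 ± 0.15 (SE, adjusted p = 7.83e-09, limma). At 1 h the biopsies (23.8 to 33.6 FPKM, median 30.3) lay inside the range of the shams (43.6, 32.0, 21.9 and 24.8 FPKM), with a log2 change of −0.01. At 3 d the biopsies (17.8 to 27.1 FPKM, median 23.3) overlapped the shams (11.4, 21.9, 19.2, 17.2 and 20.7 FPKM), and the log2 change of 0.36 (adjusted p = 0.0414, limma) was 0.21 without sham library 1 (adjusted p = 0.235, limma). At 6 d the biopsies had 17.99, 18.7, 25.0, 22.1 and 21.3 FPKM against 14.8, 17.5, 16.9, 16.8 and 17.7 FPKM, which did not overlap, yet the log2 change of 0.30 did not pass (adjusted p = 0.0965, limma).

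Nop58 (chr1:59684971-59719044, plus strand), which sits beside Nop56 in the same particles, was with Myc the only member called higher at 1 h without further scaling. With the median of ratios scaling 11 members were called higher, against 20.9% of all genes. Besides Myc and Nop58 (0.51) they were Ncl, Npm1, Nop14, Rrs1, Bop1, Wdr43, Gnl3, Ddx21 and Ltv1. The Nop58 biopsies at 1 h ranged from 37.6 to 48.9 FPKM with a median of 41.7, and the shams had 42.2, 35.01, 29.5 and 32.3 FPKM. The groups overlapped only through sham library 1. The log2 change was 0.28 ± 0.10 (SE, adjusted p = 0.0142, limma), but 0.21 without sham library 4 and 0.25 without sham library 5 (adjusted p of 0.0912 and 0.0519, limma). At 6 h the biopsies had 51.2, 45.6, 64.7, 57.4 and 44.2 FPKM and the shams 26.5, 25.7, 27.5, 27.4 and 24.7 FPKM. The groups were far apart, with a log2 change of 0.96 ± 0.10 (SE, adjusted p = 1.01e-10, limma). It rose by 0.28 at 3 d, where the groups overlapped, and was at 0.21 at 6 d (adjusted p = 0.0696, limma).

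Nolc1 (chr19:46075863-46085530, plus strand), a phosphoprotein that binds small nucleolar ribonucleoproteins, had 24.6, 21.6, 28.9, 27.1 and 21.1 FPKM after biopsy at 6 h and 12.2, 11.4, 9.89, 12.5 and 10.3 FPKM after sham. The lowest biopsy was well above the highest sham, and the log2 change was 1.06 ± 0.14 (SE, adjusted p = 5.44e-08, limma). At 1 h its biopsies (14.0 to 21.9 FPKM, median 19.0) and shams (24.4, 20.1, 13.9 and 14.9 FPKM) overlapped throughout. At 3 d the biopsies (11.5 to 19.0 FPKM, median 16.1) overlapped the shams (6.59, 12.4, 13.4, 10.8 and 12.6 FPKM) with a rise of 0.49, and at 6 d the value was 0.24 (adjusted p = 0.181, limma). Of the other 5, Nhp2 rose by 1.07, Gar1 by 0.90, Dkc1, the pseudouridine synthase, by 0.79, Rrp9, a U3 particle protein, by 0.72, and Fbl, the methyltransferase fibrillarin, by 0.68 at 6 h. Dkc1 was the member of this group called lower at 1 h (−0.26, adjusted p = 0.0481, limma), and it was at −0.06 with the median of ratios scaling (adjusted p = 0.678, limma) and −0.17 without sham library 1 (adjusted p = 0.236, limma).

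**Figure D3:**
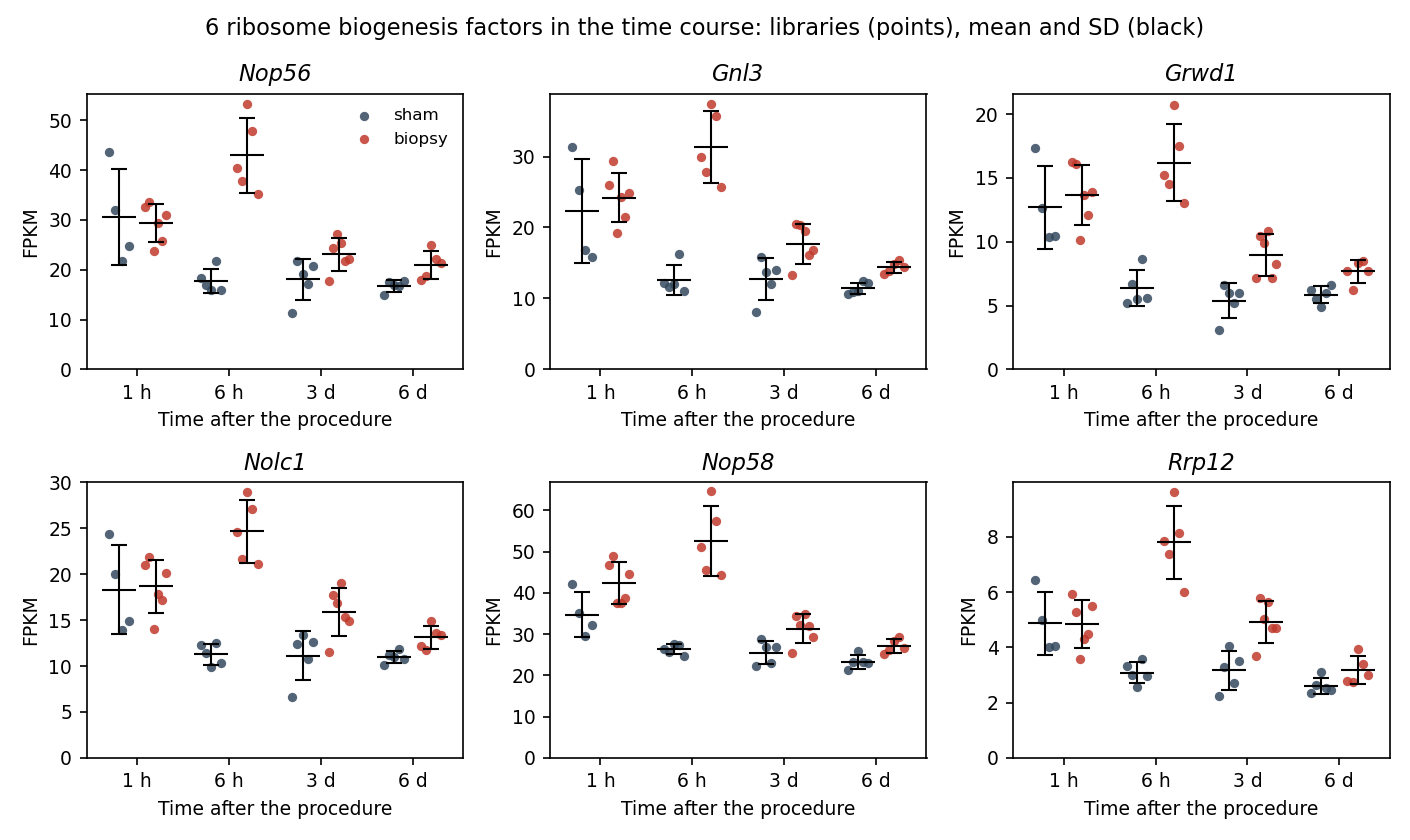
FPKM (vertical axes, from 0) of Nop56, Gnl3, Grwd1, Nolc1, Nop58 and Rrp12 by time (horizontal axis), with sham libraries in dark blue, biopsy libraries in red and the mean ± SD in black. In each panel the groups are apart at 6 h and the sham points at 1 h spread upward, with sham library 1 the highest.

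Of 11 small subunit factors 9 rose at 6 h, 9 at 3 d and 7 at 6 d, with median log2 changes of 0.56, 0.35 and 0.25. With the median of ratios scaling 3 rose at 6 d (Wdr3, Wdr75 and Nob1), and the calls of Wdr43, Nop14, Pno1 and Bysl were lost. Rrp12 (chr19:41862851-41896173, minus strand), which takes part in maturation and export of pre-ribosomes, had 7.86, 7.38, 9.61, 8.13 and 5.99 FPKM after biopsy at 6 h and 3.34, 2.99, 2.57, 3.57 and 2.97 FPKM after sham. The groups did not overlap, and the log2 change was 1.10 ± 0.12 (SE, adjusted p = 1.46e-09, limma). At 1 h the level was 4.84 ± 0.87 FPKM (SD, n = 6) after biopsy and 4.87 ± 1.14 (SD, n = 4) after sham, and at 3 d it rose by 0.51. Bysl, needed for processing of the small subunit precursor, rose by 0.96 at 6 h, Pno1, which guides the final cut of its RNA, by 0.85, and Heatr1, a factor of early small subunit assembly, by 0.78. Wdr43 rose by 0.74, Nop14 by 0.56, Wdr75 by 0.55 and Ltv1 by 0.45. Nob1, the nuclease of that final cut, was lower at 1 h (−0.35, adjusted p = 0.000992, limma) and rose more at 6 d (0.44) than at 6 h (0.29), a difference that was not tested. Under the median of ratios scaling its 1 h value was −0.14 and did not pass (adjusted p = 0.163, limma).

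Wdr3 and Tsr1 were the members not called at 6 h. Wdr3, a scaffold of early small subunit assembly, was at 0.17 (adjusted p = 0.06, limma), but with the median of ratios scaling it was at 0.29 and passed (adjusted p = 0.000925, limma). It was lower at 1 h (−0.22), but at −0.02 under that scaling (adjusted p = 0.842, limma) and −0.15 without sham library 1 (adjusted p = 0.131, limma). Tsr1 (chr11:74898071-74909342, plus strand), a late factor of the cytoplasmic small subunit precursor, is described by library because its pattern stood out, a choice made after its values were seen. At 1 h its biopsies ranged from 13.3 to 17.96 FPKM with a median of 16.8, and its shams had 26.1, 24.4, 22.4 and 26.1 FPKM. All biopsies were below all shams, with a log2 change of −0.57 ± 0.06 (SE, adjusted p = 1.3e-09, limma), and it stayed called at −0.35 with the median of ratios and −0.42 with quantile normalization. At 6 h the biopsies had 26.6, 24.9, 29.0, 24.8 and 29.2 FPKM and the shams 26.6, 28.6, 27.3, 25.9 and 25.5 FPKM. The groups overlapped throughout, and the log2 change of 0.00 ± 0.06 (SE) did not pass (adjusted p = 0.955, limma). It was at −0.02 at 3 d and 0.03 at 6 d.

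All 9 large subunit factors rose at 6 h and at 3 d, with medians of 0.87 and 0.39, and 3 rose at 6 d (Rrs1 by 0.50, Nop16 by 0.40 and Pes1 by 0.20). At 3 d 7 of the 9 rose with the median of ratios scaling, without Nop2 (0.20) and Wdr12 (0.16, adjusted p = 0.125 for both, limma), and 6 without sham library 1. Pes1 at 6 d was at 0.08 with that scaling (adjusted p = 0.186, limma). Gnl3 (chr14:31012433-31019152, minus strand), the GTP-binding protein nucleostemin, had 29.9, 27.8, 37.4, 35.7 and 25.7 FPKM after biopsy at 6 h and 12.2, 11.6, 12.0, 16.3 and 11.1 FPKM after sham. The groups did not overlap, and the log2 change was 1.24 ± 0.15 (SE, adjusted p = 5.04e-09, limma). Its rise of 0.46 at 3 d was 0.32 without sham library 1 (adjusted p = 0.0646, limma), and its 6 d value was 0.31 (adjusted p = 0.089, limma). Grwd1 (chr7:45825223-45830944, minus strand), a histone-binding factor that associates with large subunit precursors, had 15.2, 14.6, 20.7, 17.5 and 13.0 FPKM after biopsy at 6 h and 5.21, 6.71, 5.54, 8.66 and 5.58 FPKM after sham. Again no library of one group reached into the other, and the log2 change was 1.23 ± 0.15 (SE, adjusted p = 1.3e-08, limma). At 3 d its 6 biopsies (7.15 to 10.8 FPKM, median 9.08) still lay above its shams (3.09, 6.59, 6.00, 5.22 and 5.95 FPKM), a rise of 0.66 ± 0.15 (SE, adjusted p = 0.000485, limma). At 1 h both genes were near their shams, with values of 0.15 for Gnl3 and 0.11 for Grwd1. With the median of ratios scaling Gnl3 was at 0.37 and passed (adjusted p = 0.0293, limma), while Grwd1 at 0.33 did not (adjusted p = 0.0627, limma).

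The other large subunit factors rose at 6 h by 0.39 (Pes1) to 0.98 (Rrs1). Pes1, Bop1 and Wdr12 form 1 complex, and their rises were 0.39, 0.75 and 0.81. Nop2, a methyltransferase of the large subunit RNA, rose by 0.84, Nop16 by 0.87 and Noc2l by 0.93. Pes1 was lower at 1 h (−0.22, adjusted p = 0.00322, limma), but at −0.01 with the median of ratios scaling (adjusted p = 0.871, limma). Of the nucleolar proteins, Mybbp1a, a transcriptional regulator found in the nucleolus, rose by 1.02 at 6 h, Ncl (nucleolin) by 0.85, the helicase Ddx21 by 0.80 and Npm1 (nucleophosmin) by 0.58. All 4 rose at 3 d by 0.32 to 0.42, but without sham library 1 Ncl was at 0.18 (adjusted p = 0.0692, limma) and Mybbp1a at 0.23 (adjusted p = 0.0932, limma). Ddx21 (0.29) also rose at 6 d, and was at 0.17 with the median of ratios scaling (adjusted p = 0.189, limma). Npm1 had the highest level per length of the 35, at 80.3 to 94.8 FPKM in the means of the sham groups of the time course.

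The change of the effect between times was tested itself. From 1 h to 6 h the biopsy effect increased in 34 of 35 members, all but Myc, by 0.39 to 1.24 on the log2 scale, against 30.0% of all genes up and 16.8% down. The median level of the 34 factors other than Myc, on the log2(FPKM + 1) scale and taken as the middle library of each group, went from 4.05 to 3.65 in shams and from 4.09 to 4.46 in biopsies, so the shams moved as well as the biopsies. From 6 h to 3 d it decreased in 22 and increased in 0, with a median of −0.40, against 11.0% of all genes down and 41.2% up (0 members up also at an unadjusted p under 0.05). With the median of ratios scaling 32 decreased with a median of −0.64, against 22.8% of all genes, and leaving out 1 library gave 18 to 28. The decrease was 0.86 in Nop56, 0.78 in Gnl3, 0.67 in Nop58, 0.58 in Rrp12, 0.57 in Grwd1 and 0.56 in Nolc1. From 3 d to 6 d limma called 0 of 35, where 1.84% of all genes were called. There were 5 members at an unadjusted p under 0.05, a threshold at which all genes were not counted.

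**Figure D4:**
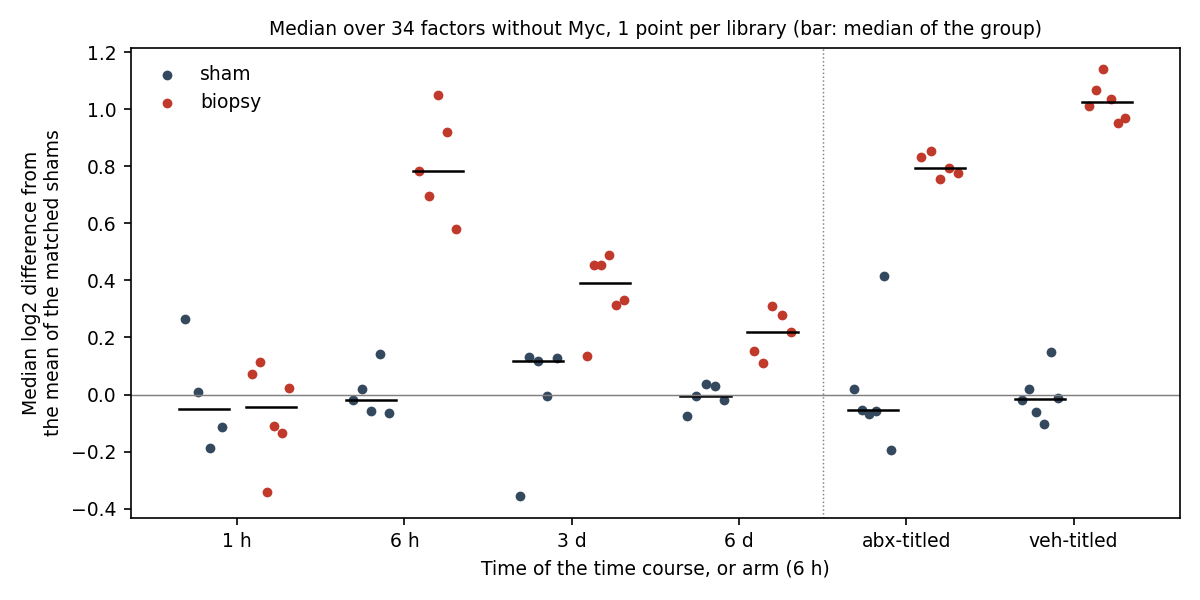
Median over 34 factors without Myc of the log2 difference from the mean of the matched shams (vertical axis), with 1 point per library, by time or arm (horizontal axis), and a bar at the median of each group. Biopsies at 6 h lie between 0.58 and 1.05, at 3 d between 0.14 and 0.49 and at 6 d between 0.11 and 0.31, while at 1 h they lie among the shams.

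The level in sham tissue was itself not constant. Across the 4 sham groups 30 of 35 members passed the F test, as did 59.0% of all genes. The mean of the 1 h shams was the highest of the 4 sham groups for 32 of 35 members. This ranking was not made for all genes, so it does not set the members apart. For Myc the sham means were 15.3 FPKM at 1 h, 8.05 at 6 h, 8.09 at 3 d and 9.63 at 6 d, and for Grwd1 12.7, 6.34, 5.37 and 5.84 FPKM. Against the mean of the 4 sham groups, a reference chosen after seeing these levels, 22 members were higher at 1 h and 2 lower, against 19.0% and 50.7% of all genes. With the median of ratios scaling 11 were higher and 2 lower, against 20.9% and 20.6%. At 6 h the same changes gave 34 and 34 higher, against 28.3% and 32.7% of all genes. The median log2 change of the members against that common reference was 0.27 at 1 h and 0.80 at 6 h. This was a smaller step than that from −0.05 to 0.81 against the shams of each time. Myc was at 2.0679 at 1 h and 1.2015 at 6 h against the common reference. Against the shams of each time it was at 1.52 and 1.46. The difference between the 2 values of Myc against the common reference was not tested.

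In the cohort with 2 arms, collected at 6 h, the members rose in both. In the abx-titled arm 34 of 35 were higher and 0 lower, against 26.5% and 43.9% of all genes, with a median of 0.82. In the veh-titled arm all 35 were higher, against 25.7% of all genes higher and 49.0% lower, with a median of 1.04. Every biopsy was above every sham in 29 members in the abx-titled arm and in 34 in the veh-titled arm, as in 16.5% and 20.9% of all genes tested. Myc ranged over 14.3, 17.9, 16.5, 23.8 and 16.1 FPKM in the abx-titled biopsies and from 3.12 to 4.75 FPKM (median 3.96) in their 6 shams. The lowest biopsy was far above the highest sham, and the log2 change was 1.90 ± 0.10 (SE, adjusted p = 9.56e-13, limma). In the veh-titled arm the 6 biopsies were between 12.6 and 18.6 FPKM (median 15.0) and the 6 shams between 3.04 and 3.50 FPKM (median 3.29), which gave 1.92 ± 0.10 (SE, adjusted p = 2.68e-13, limma).

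Nop56 rose by 1.39 ± 0.10 in the abx-titled and by 1.85 ± 0.10 (SE) in the veh-titled arm, from shams of 8.43 to 16.1 FPKM (median 9.46) and 8.52 to 10.5 FPKM (median 9.07). Its abx-titled biopsies had 29.8, 26.9, 27.5, 27.4 and 29.7 FPKM and its veh-titled ones 32.3 to 40.8 FPKM (median 35.3). The biopsies of the arms did not overlap, and the abx-titled sham at 16.1 FPKM was library 5. Rises in the abx- and veh-titled arms were 1.38 and 1.69 for Gnl3, 1.03 and 1.50 for Grwd1, 1.14 and 1.47 for Nolc1, 1.11 and 1.43 for Nop58 and 1.08 and 1.33 for Rrp12. Tsr1 was at −0.04 in the abx-titled arm (adjusted p = 0.619, limma) and rose by 0.17 in the veh-titled arm (adjusted p = 0.0225, limma), a call lost without biopsy library 3 or sham library 3 or 4 of that arm (adjusted p of 0.0506, 0.0601 and 0.0718, limma). The effect was larger in the veh-titled arm by a median of 0.21, but limma called 0 of 35 differences, where 3.31% of all genes were called. There were 12 members at an unadjusted p under 0.05, all 12 in that direction. All genes were not counted at that threshold. With the median of ratios scaling 7 were called, against 4.25% of all genes. Without that scaling the largest differences were in Grwd1 (0.47 ± 0.17, SE, adjusted p = 0.109, limma) and Nop56 (0.46 ± 0.14, SE, adjusted p = 0.0776, limma), and for Myc the difference was 0.02 ± 0.14 (SE). The abx-titled sham library 5 lay above its group's mean by a median of 0.42 over the 34 factors other than Myc. It makes the effect in that arm smaller, and the size of the differences without it is not given here. Between the shams of the arms Rrp9 alone of the members was called, higher by 0.23 in the veh-titled shams (adjusted p = 0.039, limma), against 12.6% of all genes.

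Other genes of the pathway were counted from lists that exclude the members and were also chosen with earlier results of these data known. Of 46 further large subunit factors tested, 40 rose and 1 fell at 6 h with a median log2 change of 0.47, and 33 rose at 3 d and 25 at 6 d, of which the 6 d count was 6 with the median of ratios scaling. The largest at 6 h were Eif6 (1.19), which keeps the large subunit from joining early, Mrto4 (1.14), which holds the place of the ribosomal stalk, and Rrp1b (1.04). Of 44 further small subunit factors 29 rose and 4 fell at 6 h (median 0.28), led by Noc4l (1.07), Rcl1 (0.92) and Cirh1a (0.86), and 32 rose at 3 d (18 with the median of ratios scaling). Of 17 genes of the RNA polymerase I machinery 6 rose and 2 fell (median 0.05), among them Cd3eap (0.84), Polr1e (0.71) and Polr2l (0.61), 3 polymerase subunits, and with the median of ratios scaling 10 rose and 1 fell. Of all genes 24.3% were higher and 43.2% lower at 6 h (median −0.12), 32.1% were higher at 3 d and 34.1% at 6 d. With the median of ratios scaling 32.7%, 19.8% and 18% of all genes were higher at these 3 times. In the arms, 42 of the 46 large subunit factors rose in each, and 32 and 35 of the 44 small subunit factors. Of all genes 26.5% were higher in the abx-titled and 25.7% in the veh-titled arm.

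The ribosomal proteins, the building blocks themselves, gave no such count. Of 79 tested 3 rose and 14 fell at 6 h, against 24.3% and 43.2% of all genes, with a median of −0.08. The 3 largest changes were Rpl26 (0.92), Rpl34 (0.77) and Rpl30 (0.65). The split depended on the scaling, with 12 higher and 1 lower under the median of ratios (median 0.07) and 3 higher and 30 lower under quantile normalization (median −0.19), while the members' median was 0.94 and 0.84. Ribosomal protein genes and Npm1 have many near-identical processed pseudogenes, and how reads were shared between copies is not stated, so their values are uncertain.

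**Figure D5:**
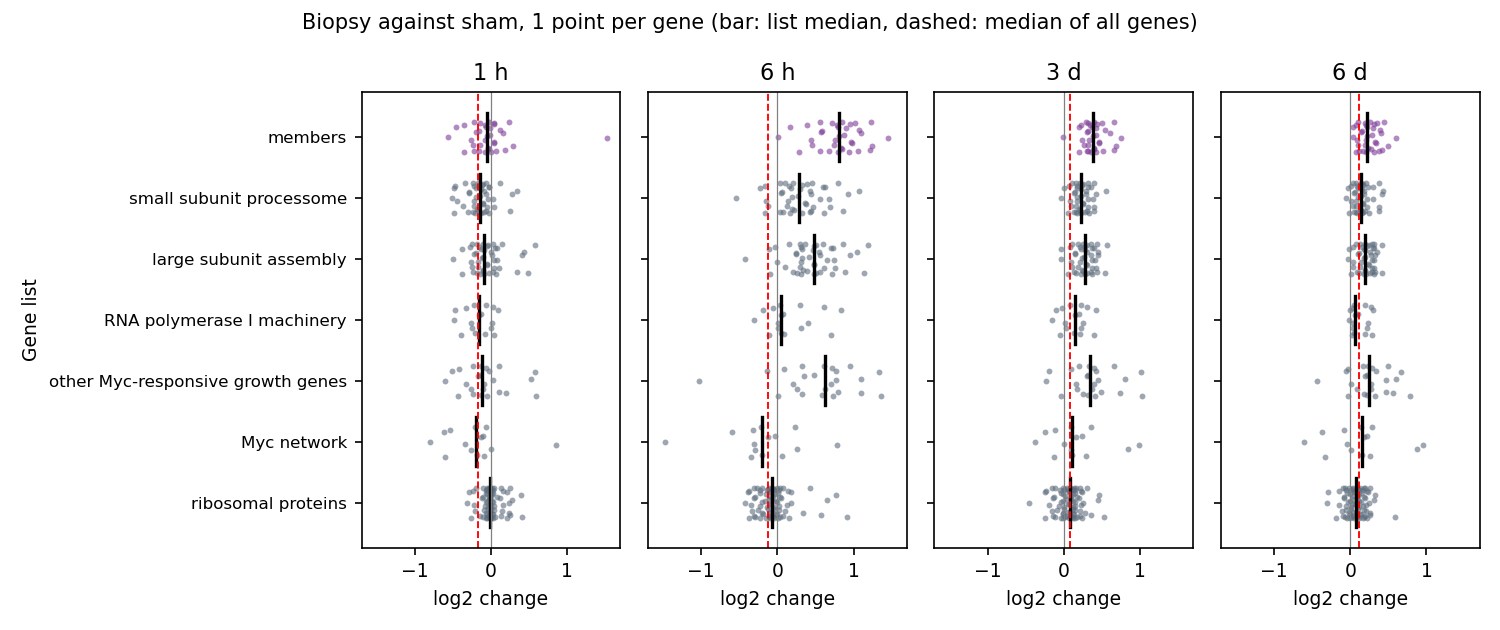
Log2 change, biopsy against sham (horizontal axis), with 1 point per gene of 7 gene lists (vertical axis) at 4 times, a bar at the median of each list and a dashed red line at the median of all genes tested. At 6 h the members' median of 0.81 and that of the large subunit list of 0.47 lie right of the line at −0.12, and that of the ribosomal proteins at −0.08 lies close to it.

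Against 24.3% of all genes higher and 43.2% lower, 18 of 24 other growth genes known to respond to Myc rose and 1 fell at 6 h (median 0.62). They were led by Slc7a5 (1.36), an amino acid transporter, Srm (1.33), spermidine synthase, and Odc1 (1.10), the ornithine decarboxylase that begins polyamine synthesis. At 1 h 3 were higher and 7 lower (median −0.12), against 9.38% and 45.0% of all genes, and Odc1 was at 0.19 (adjusted p = 0.145, limma). With the median of ratios scaling 7 were higher and 1 lower at 1 h (median 0.11), against 20.9% and 20.6%. At 3 d 18 rose, against 32.1% of all genes, and at 6 d 13, against 34.1% (8 with that scaling, against 18%). Odc1 rose by 0.45 and 0.28 at 3 d and 6 d. Of 14 genes of the Myc network, which includes partners and antagonists, 3 rose (21.4%) and 6 fell (42.9%) at 6 h. These shares were near those of all genes, 24.3% and 43.2%. With the median of ratios scaling 3 rose and 4 fell, against 32.7% and 31.7% of all genes. Mxd4, which pairs with Max in place of Myc, fell by 1.47, Mxd1 of the same family rose by 0.78, Mlxip fell by 0.59 and Max by 0.30. At 3 d and 6 d Mycn rose by 0.98 and 0.88 and Mxd3 by 0.84 and 0.95, while Max fell by 0.37 and 0.60. In the abx- and veh-titled arms Mxd4 fell by 1.38 and 2.03.

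Markers of cell types were counted as well. Of all genes 9.38% were higher and 45.0% lower at 1 h, and 24.3% and 43.2% at 6 h. These shares were 32.1% and 10.5% at 3 d and 34.1% and 10.2% at 6 d. In the abx-titled arm they were 26.5% and 43.9%, and in the veh-titled arm 25.7% and 49.0%. With the median of ratios scaling they were 20.9% and 20.6% at 1 h and 19.8% and 19.2% at 3 d. At 6 h 8 of 8 neutrophil markers rose, with summed levels of 366.5 to 913 FPKM in biopsies and 0.393 to 2.26 in shams. At that time 7 of 10 epithelial markers rose and 1 fell, with sums of 14590 to 16090 against 9499 to 10510 FPKM. Already at 1 h 7 epithelial markers rose and 0 fell, with sums of 14580 to 16900 against 10660 to 12080 FPKM. At 3 d 4 of them rose (0 with the median of ratios scaling) and 1 fell, near the shares of all genes. At 6 d 0 of the epithelial markers rose and 4 fell. Of 10 markers of cycling cells 1 rose at 6 h (Rrm2, 1.46) and 0 fell, with sums of 93.9 to 149.5 against 88.6 to 138.8 FPKM, and Mki67 was at −0.21 (adjusted p = 0.208, limma). Of 8 markers of crypt stem and progenitor cells 2 rose and 5 fell at 6 h, with sums of 81.0 to 101.7 against 104.5 to 110.8 FPKM. At 3 d 7 and at 6 d 10 of the cycling markers rose, with Mki67 at −0.02 (adjusted p = 0.935, limma) and 0.42 (adjusted p = 0.0219, limma), and 7 of 8 fibroblast markers rose at both times. At 1 h 6 of 8 neutrophil markers rose, and also 6 with the median of ratios scaling. Of the 10 cycling markers 4 fell at 1 h, near the 45.0% of all genes, and 0 with that scaling. Of 5 red blood cell markers 5 rose at 1 h and 6 h, with medians of 4.57 and 3.46 and sums of 832.5 to 6065 and 171.6 to 3116 FPKM in biopsies against 32.1 to 140.4 and 20.5 to 73.9 FPKM in shams. Of 7 macrophage markers 6 fell at 1 h, 3 rose and 4 fell at 6 h and 7 rose at 3 d, and 5 of 8 fibroblast markers fell at 1 h (3 with the median of ratios scaling) and 5 at 6 h. All 8 neutrophil markers rose at 3 d and 6 d too, and all 6 smooth muscle markers fell at 3 d, with sums of 685.7 to 1826 against 1403 to 3532 FPKM. Of 6 endothelial markers 5 rose at 3 d and 4 at 6 d. In the arms 8 of 8 neutrophil and 8 of 10 epithelial markers rose in both, 5 and 4 of the red blood cell markers rose in the abx- and veh-titled arms, and 5 and 7 of the fibroblast markers fell. At 6 d 2 of the 3 T cell markers tested rose (1 with the median of ratios scaling). Otherwise the B cell and the T cell markers, where tested, each had at most 1 call in a comparison. The part of these cells in the members' results was not tested.

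Some members share exon bases with a gene on the other strand in GENCODE vM21, and whether strand was used in counting is not given, so reads of such pairs cannot be told apart. These are Nop56 with Idh3b, Gnl3 with Pbrm1, Tsr1 with Srr, Mybbp1a with Spns2, Pno1 with Wdr92, Bysl with Ccnd3, Rrp9 with Parp3, Bop1 with Mroh1, Noc2l with Samd11, Nhp2 with Rmnd5b, Heatr1 with Lgals8, Wdr3 with Gdap2 and Spag17, Wdr12 with Carf, Dkc1 with Mpp1 and Pes1 with 4930556J24Rik, besides antisense genes at Nop14, Polr1a, Wdr43 and Grwd1. Nop56, Gnl3, Nop58 and Ncl also share exon bases with small RNA genes of their introns. Myc, Nolc1 and Rrp12 share none.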

How the data were processed

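Polyadenylated RNA of colon tissue was measured in 64 libraries. The submitters' processing notes name STAR, Cufflinks and the mm10 build (versions and annotation: not given in the sources used here). The authors deposited 1 table per library with FPKM for each gene symbol, relative to transcript length and mapped reads, and read counts were not used here. Libraries were grouped by condition and time in the labels, and in the arms by title. No libraries held identical values.

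Values were taken as log2(FPKM + 1), which understates changes of low genes. Genes that reached 1 FPKM in 4 or more libraries of a cohort were fitted with limma 3.58.1 (R 4.3.3), 1 mean per group, empirical Bayes with a mean-variance trend, and 33 and 19 residual degrees of freedom. Tested were biopsy against sham, how that effect differed between times or arms, all 4 sham groups by F test, and the shams of one arm against the other's. Within a comparison p-values were adjusted by Benjamini-Hochberg over all genes tested, and an adjusted p under 0.05 was a call. The fits were tested on simulated data. The members and the other gene lists were chosen with earlier results of these data known.

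Values by library are given for Myc and the 6 members with the largest absolute change among those called in the 6 biopsy comparisons, and of the other lists the counts and up to 3 called members with the largest change, with Mki67, Odc1 and Max named in every case. Alternatives changed the pseudocount (0.1), dropped the filter or raised it to 5 FPKM, scaled libraries by the median of ratios, used array weights or quantile normalization, fitted only the groups compared, or took the replicate block or left each library out in turn. Another 2 were chosen after seeing the data, namely libraries rich in B cell genes left out (summed markers of at least 50 FPKM) and the mean of the 4 sham groups as reference. Python 3.11.15 with pandas and matplotlib was used for tables and figures.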

Additional observations from a re-analysis of the deposited data

Results flagged for a closer look

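In 10 of 96 sets of 1 gene in 1 group, 1 library lay far from the others by Dixon's ratio. The sets covered the 7 members given by library and Tsr1. Chance alone marks about 1 in 20 independent sets. These sets share libraries, so the rates cannot be set against each other. The abx-titled sham library 5 was the high one for Nop56 (16.1 FPKM), Gnl3 (13.7 FPKM), Grwd1 (6.15 FPKM), Nolc1 (10.2 FPKM) and Rrp12 (3.51 FPKM). The 6 h sham library 4 was high for Myc (11.0 FPKM) and Gnl3 (16.3 FPKM). The veh-titled sham library 5 was high for Gnl3 (9.17 FPKM) and Nop58 (18.8 FPKM). The 1 h biopsy library 3 was low for Tsr1 (13.3 FPKM).

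The effect of biopsy differed between times by limma's test of the difference. From 1 h to 6 h it was higher on the log2 scale by 1.24 in Nop56, 1.09 in Gnl3, 1.12 in Grwd1, 1.01 in Nolc1, 0.67 in Nop58, 1.10 in Rrp12 and 0.57 in Tsr1. From 6 h to 3 d the difference was −0.85 in Myc, −0.86 in Nop56, −0.78 in Gnl3, −0.57 in Grwd1, −0.56 in Nolc1, −0.67 in Nop58 and −0.58 in Rrp12.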

How the results depend on the processing

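The 6 h, abx-titled and veh-titled counts stayed within 1.5 times under every alternative run, with 33 to 34, 34 and 34 to 35 members higher when 1 library was left out. The count of members higher at 1 h was 11 with median of ratios scaling, 4 with quantile normalization, 22 against the mean of the 4 sham groups and 1 to 3 leaving out 1 library (1 without sham library 4 or 5). Lower at 1 h were 2, 1 and 2 under the same settings. At 3 d 21 to 34 were higher leaving out 1 library. The 3 d change of Myc was 0.42 to 0.73 leaving out 1 library and 0.32 against the mean of the 4 sham groups (adjusted p = 0.0731, limma). At 6 d 7 were higher with median of ratios scaling, 6 with quantile normalization, 24 with the replicate block, 25 in a fit of the 2 groups alone, and 4 higher and 1 lower (Rrp9) against the mean of the 4 sham groups. The difference between 6 d and 3 d had 1 call with the replicate block. That between the arms had 7 with median of ratios scaling, 3 with quantile normalization, 4 with array weights and 0 to 2 leaving out 1 library (1 without abx-titled sham 5 and 2 without abx-titled sham 6). Between the shams of the arms the call of Rrp9 was lost with no filter (0), 2 were called with quantile normalization, and 0 to 2 leaving out 1 library (0 without abx-titled sham 2 or veh-titled sham 1, 2, 3 or 6, and 2 without abx-titled sham 5).

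Against the mean of the 4 sham groups values turned positive at 1 h for Nop56 (0.54), Nop2 (0.42), Nop14 (0.19), Rrp9 (0.45), Rrp12 (0.42), Pes1 (0.0074), Wdr75 (0.31), Mybbp1a (0.23), Heatr1 (0.22), Nob1 (0.053), Pno1 (0.22), Gar1 (0.44), Nhp2 (0.28) and Ltv1 (0.27), and negative for Rrp9 at 3 d (−0.0006) and 6 d (−0.26). These are values called in at least 1 of the 2 fits. Of the members called with median of ratios scaling, Ncl (0.20), Nop14 (0.20) and Ltv1 (0.19) turned positive at 1 h, as did Nop14 (0.18) with quantile normalization. Counting values that were not called too, 24 of 35 were negative at 1 h, 9 with median of ratios scaling and 10 with quantile normalization. The scaling and the reference were the only changes made there, and the cause beyond them was not tested.

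Whether biopsy and sham libraries with the same replicate number are paired was not decided. Correlations of their deviations from the group means ran from −0.28 to 0.25, which in groups of 4 to 6 libraries cannot exclude pairing. The replicate block is therefore given only as counts. FPKM without read counts leave the precision of low genes such as Wdr12 and Rrp12 unknown, and groups of 4 to 6 libraries limit what could be called.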
